A study of Mus musculus with 264 samples.

Results

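Single neurospheres of the Set-A cultures grown with 25 mM ethanol were compared with neurospheres of the same culture set grown without ethanol. Members were taken by their column names in the table of cycle numbers, which carry run, set and dose, and by the matching set and ethanol labels. This gave 66 of the 264 neurospheres measured, 34 at 0 mM and 32 at 25 mM. Run 1 held 11 neurospheres of each dose, and run 2 held 23 at 0 mM and 21 at 25 mM.

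All of them came from C57/Bl6 mouse fetuses at gestational day 12.5, with no genetic change named in the labels. Cells of the dorsal telencephalic neuroepithelium from pooled litters, 2 in each pool, were put into a defined medium with bFGF, EGF and LIF and left to form floating spheres. Both groups received these growth factors, and ethanol was the only treatment in which their labels differed. Cultures were assigned to doses at random, fed again at day 3 and collected at day 5. The sample labels give the dose as 25 mM, while the treatment protocol gives 26 mM. How many dishes stood behind each dose is not known here. The p-values therefore measure the spread between neurospheres of 1 culture set, and dish and dose cannot be told apart.

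A neurosphere is a floating clump that grows from neural stem and progenitor cells kept dividing by mitogens, and it holds stem cells, committed progenitors and some differentiating cells together. The dorsal telencephalon is the part of the embryonic forebrain that forms the cerebral cortex, and its ventricular neuroepithelium holds the cells that give rise to cortical projection neurons. Ethanol is a teratogen that reaches the fetal brain, and prenatal exposure is known for reduced brain growth and altered cortical development. The diameter of a sphere reflects how many cells it holds and how they are packed.

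Each sphere was imaged, lysed whole and read by quantitative PCR on microfluidic arrays, which report the amplification cycle at which product appears. An earlier cycle means more template, on a scale where a cycle is about a doubling if every primer pair is fully efficient. The table held 75 assays under coded identifiers that the files do not pair with genes, so transcripts are described by number, direction and size of change. The dorsal telencephalic identity of the cells could not be checked against marker transcripts for the same reason. Of the 4950 values, 507 (10.2%) held no cycle number and are called not detected, and the others lay between 2.5 and 26.8 cycles. A neurosphere had between 54 and 73 detected assays, with a median of 68, and 35 assays were detected in all 66 neurospheres. No 2 neurospheres held identical values, and the closest pair differed by a median of 0.409 cycles over the assays. A cycle number has no count of molecules behind it, so precision rests on the spread between neurospheres.

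Neurospheres exposed to 25 mM ethanol were smaller. In run 1 the diameter ran from 35.3 to 137.9 micrometres at 0 mM (median 86.1, n = 11) and from 25.9 to 55.0 at 25 mM (median 42.5, n = 11). In run 2 it ran from 20.7 to 197.0 at 0 mM (median 42.5, n = 23) and from 15.6 to 57.7 at 25 mM (median 37.3, n = 21). The difference lay at the large end: in each run 9 neurospheres at 0 mM were larger than the largest at 25 mM, and the small end of the ranges overlapped. The run 1 groups overlapped little, with 2 of 11 unexposed neurospheres inside the exposed range, while 14 of 23 lay inside it in run 2. The mean was 86.2 ± 33.8 micrometres at 0 mM and 42.5 ± 8.15 at 25 mM in run 1 (SD), and 60.3 ± 41.5 and 35.0 ± 10.8 in run 2.

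On the log2 scale the diameter difference within run was -0.71 (SE 0.16, 95% interval -1.03 to -0.40, adjusted p = 0.0003, two-sided permutation test), a ratio of geometric means of 0.609. The ratio was 0.528 in run 1 (adjusted p = 0.00352) and 0.655 in run 2 (adjusted p = 0.0139; permutation tests). The p-values of diameter, mean cycle number, assays detected and component scores were adjusted together over 15 tests, each measure combined and in each run. The submitters' size classes followed the same order: 18 of 34 neurospheres at 0 mM carried the label L, 10 the label M and 6 the label S, against 2, 21 and 9 of the 32 at 25 mM. Because the doses differ in size, levels, components and the number of assays detected are also given below with log2 diameter as a covariate. Detection of single assays is given without it.

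No difference in total signal was detected. Averaged over 50 widely detected assays (at least 95% of all 264 neurospheres), the cycle number ran from 8.92 to 14.3 at 0 mM (median 12.8) and from 8.54 to 14.4 at 25 mM (median 13.2) in run 1. In run 2 it ran from 7.08 to 17.96 at 0 mM (median 14.9) and from 11.7 to 19.7 at 25 mM (median 14.8). The groups overlapped almost wholly, and 4 unexposed neurospheres of run 2 gave product earlier than every exposed one of that run. The difference was 0.32 cycles later at 25 mM (SE 0.46, 95% interval -0.60 to 1.24, adjusted p = 0.573, permutation test), and its interval leaves room for a change of about a cycle. It was 0.29 cycles in run 1 and 0.33 in run 2. Such a whole-sphere measurement cannot tell cell number from RNA per cell.

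**Figure D1:**
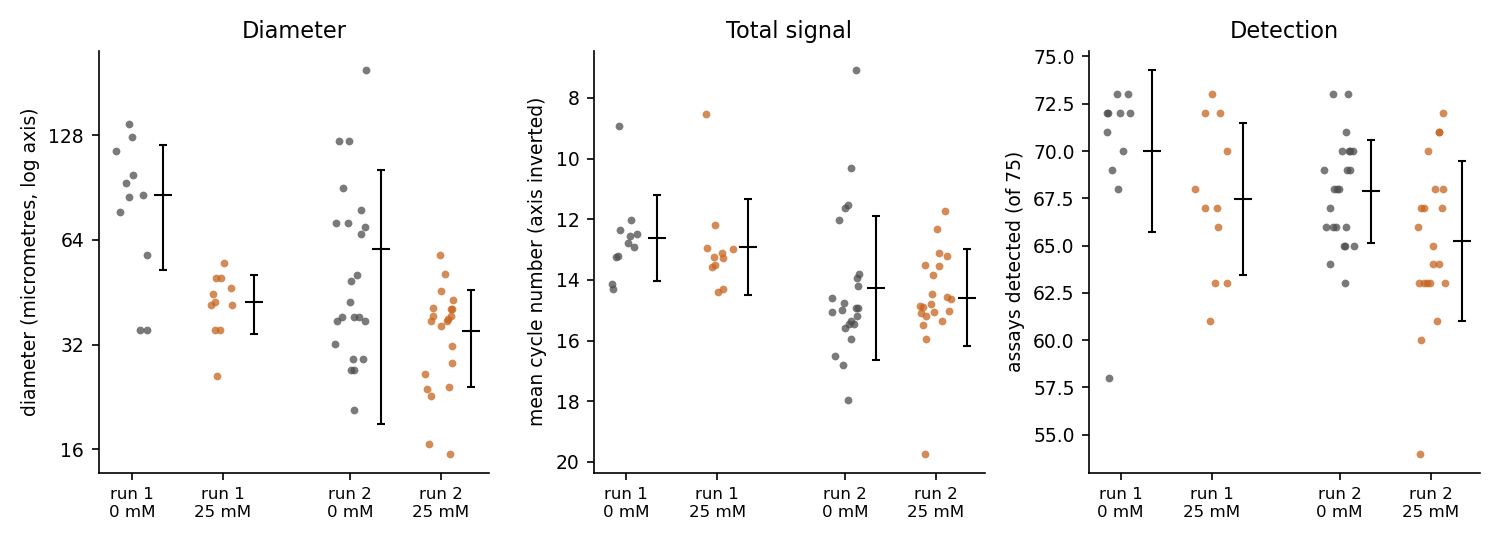
Diameter in micrometres (log axis), mean cycle number over 50 widely detected assays (axis inverted, so that higher means more product) and the number of assays detected out of 75, by run and ethanol dose. Points are neurospheres (n = 11, 11, 23 and 21 from left to right) and bars the mean with 1 SD; diameters at 25 mM end at 55.0 and 57.7 micrometres, while mean cycle numbers of both doses overlap.

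Within a run and dose, no relation between size and total signal passed the test. Pearson's r between mean cycle number and log2 diameter was -0.14 at 0 mM and -0.47 at 25 mM in run 1, and 0.08 and -0.12 in run 2. Spearman's rho was -0.10, -0.39, 0.002 and -0.23 in the same order. The permutation tests gave unadjusted p of 0.68, 0.137, 0.702 and 0.61 for r and 0.762, 0.235, 0.996 and 0.315 for rho. Adjusted over the 16 relations computed, which set diameter against 4 measures in 4 groups, p was at least 0.437 for r and 0.563 for rho. Without the 2 neurospheres farthest from the median diameter, r was -0.30, -0.19, 0.04 and -0.02.

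Exposed neurospheres had fewer detected transcripts. In run 1 the number of assays detected ran from 58 to 73 at 0 mM (median 72) and from 61 to 73 at 25 mM (median 67). In run 2 it ran from 63 to 73 at 0 mM (median 68) and from 54 to 72 at 25 mM (median 65). The ranges overlapped in both runs, and 3 exposed neurospheres of run 2 lay below every unexposed one of that run. The difference was -2.60 assays per neurosphere (SE 0.92, adjusted p = 0.0151, permutation test), with -2.55 in run 1 (adjusted p = 0.232), which did not pass, and -2.63 in run 2 (adjusted p = 0.0299). With log2 diameter as a covariate it was -2.26 (unadjusted p = 0.0325).

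The losses that were called lay in a few assays with late cycle numbers. Of 20 assays detected in 5% to 95% of the 66 neurospheres, 7 changed their detection share (35.0% of those tested), 1 upward (5.00%) and 6 downward (30.0%), by the exact conditional Mantel-Haenszel test with run as stratum and adjusted p under 0.05. Of all 20 assays, 14 had a lower share at 25 mM and 6 a higher one. The 6 that fell had mean cycle numbers of 19.2 to 21.4 in the neurospheres that detected them, all later than the median of 19.1 over the 20 assays. Not every late assay fell: A041, described below, had a mean of 20.9 cycles and a share difference of -6.34 points (adjusted p = 0.556, exact test). None of the 6 passed the test for level among the neurospheres that did detect them (limma), and 0 had an unadjusted p under 0.05 there.

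The largest loss was in an assay detected in 10 of 11 neurospheres at 0 mM and 4 of 11 at 25 mM in run 1, and in 19 of 23 and 6 of 21 in run 2. Its run-weighted share fell by 54.2 percentage points (adjusted p = 0.000271, exact test). A second assay went from 11 of 11 to 4 of 11 in run 1 and from 18 of 23 to 8 of 21 in run 2, which is a fall by 48 points (adjusted p = 0.00103, exact test). A further one went from 9 of 11 to 6 of 11 and from 17 of 23 to 5 of 21, a fall by 42.5 points (adjusted p = 0.00643, exact test). All 3 fell in both runs, and in run 2 each was detected in a minority of exposed neurospheres. The single gain was in an assay detected in 10 of 11 neurospheres at 0 mM and 11 of 11 at 25 mM in run 1, and in 9 of 23 and 16 of 21 in run 2, a rise of 27.7 points (adjusted p = 0.0333, exact test). Its level among detecting neurospheres moved the other way, by -1.08 on the log2 scale (adjusted p = 0.0144, limma). In run 1 alone the exact test called 0 of 19 assays, 3 of them at an unadjusted p under 0.05, and in run 2 alone it called 2. Among neurospheres labelled M it called 1.

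**Figure D2:**
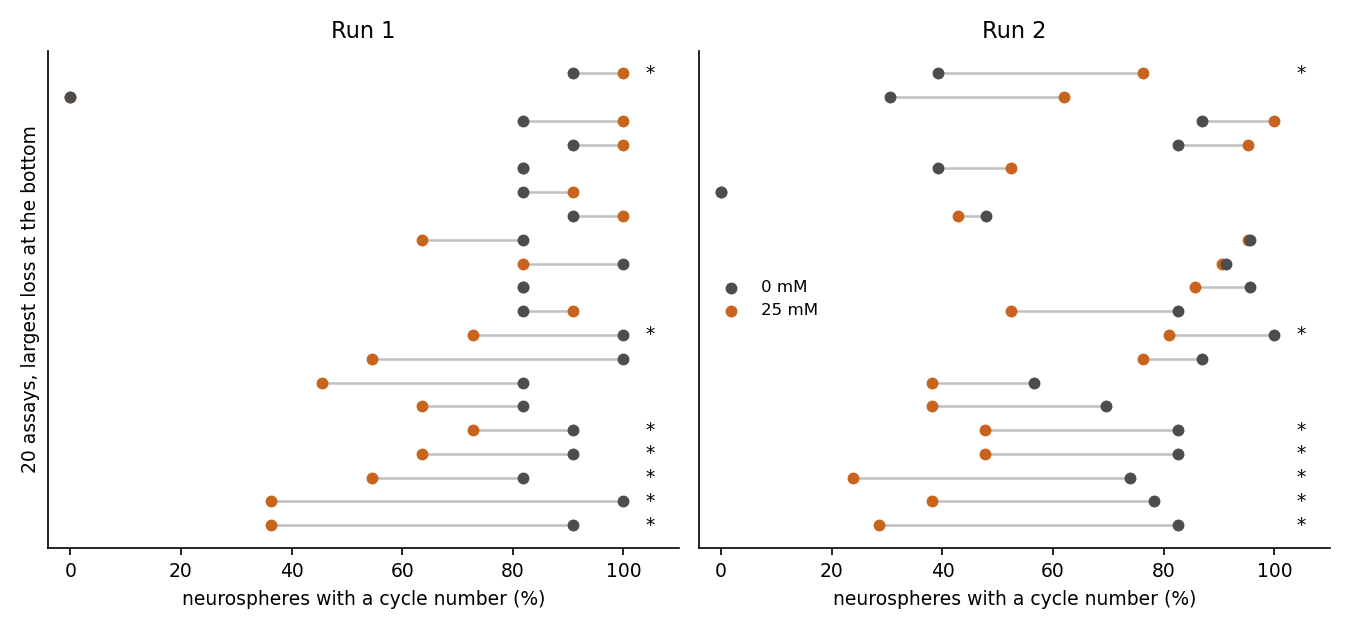
Share of neurospheres with a cycle number (percent) at 0 and 25 mM ethanol for each of 20 assays, by run, ordered by the run-weighted difference with the largest loss at the bottom. Each line joins the 2 doses of an assay, a single dark point marks equal shares, and asterisks mark the 7 assays whose share changed with both runs combined; the 6 lowest of these fell in both runs.

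Relative levels of transcripts changed in both directions. A relative level is the assay's cycle number with the sign turned, minus the mean of the 50 widely detected assays in the same neurosphere, so that higher means more, in log2 units. Of 72 assays with a value in at least 50% of neurospheres, 25 differed between the doses (34.7%; limma, run as covariate, adjusted p under 0.05), 7 higher (9.72%) and 18 lower (25.0%) at 25 mM. The rises ran from 0.73 to 2.25 log2 units with a median of 1.42, and the falls from -0.29 to -2.97 with a median of -0.91. The median size among the 25 was 2.02-fold, and 13 exceeded 2-fold. All 7 that rose had a value in every neurosphere, as did 7 of the 18 that fell.

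Falls also outnumbered rises over the whole panel under this centring. The median change of the 72 assays was -0.28, with 47 lower and 25 higher. Without centring, the median assay moved by -0.57, and 5 assays passed, 1 higher and 4 lower; centred on the 10 steadiest assays, 13 rose and 7 fell. Which direction held more calls thus depended on the scaling, and each change below is relative to the 50 widely detected assays. The 4 assays named below kept their sign under each of the other scalings tried.

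The runs were also compared with each other. In the fit with a mean for each run and dose, run 1 gave 8 changed assays (11.1%) and run 2 gave 10 (13.9%), and 3 assays passed in each run and in the combined comparison (limma). Of the 72 assays, 57 had the same direction in both runs. The 25 called in the combined comparison were among them, which that fit favours, since its change averages the runs. The change differed between the runs in 2 assays (2.78%; limma, interaction of run and dose). One was A045, described below, and the other, which the rule does not name, moved in opposite directions, with -1.94 in run 1 and 1.00 in run 2, neither of which passed.

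The 2 largest rises and the 2 largest falls among called assays with the same direction in both runs are described by neurosphere. A031 rose most. Its relative level in run 1 had a median of -3.06 at 0 mM (range -6.28 to -0.96, n = 11) and -0.33 at 25 mM (range -4.22 to 0.47, n = 11). In run 2 the median was -2.31 at 0 mM (range -7.55 to -0.03, n = 23) and 0.10 at 25 mM (range -2.54 to 1.29, n = 21). Exposed neurospheres lay high in both runs: 7 of 11 in run 1 and 11 of 21 in run 2 were above every unexposed one of their run, with overlap among the rest. The change was 2.25 log2 units (SE 0.39, adjusted p = 4.61e-06, limma), or 4.77-fold, with 2.29 in run 1 and 2.23 in run 2.

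A038 rose by nearly as much. In run 1 its relative level had a median of -4.16 at 0 mM (range -6.05 to -2.77) and -2.03 at 25 mM (range -4.74 to 0.96). In run 2 the median was -3.33 at 0 mM (range -6.23 to -1.64) and -1.32 at 25 mM (range -3.35 to 1.10). Of the exposed neurospheres, 6 of 11 in run 1 and 12 of 21 in run 2 were above every unexposed one, and the others spread through the unexposed range. The change was 2.13 log2 units (SE 0.32, adjusted p = 5.40e-07, limma), or 4.38-fold, with 1.92 in run 1 and 2.24 in run 2. Without centring it was 1.81 (adjusted p = 0.0503, limma) and did not pass. In a fit of run 1 alone neither A038 nor A031 passed (both adjusted p = 0.0609, limma).

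A045 fell most, and by unequal amounts in the runs. In run 1 its relative level had a median of 4.68 at 0 mM (range -6.45 to 6.02, n = 11) and -3.50 at 25 mM (range -9.67 to 3.91, n = 11). In run 2 the median was -4.05 at 0 mM (range -8.20 to -0.20, n = 21) and -5.17 at 25 mM (range -8.50 to -0.72, n = 21). In run 1 the unexposed neurospheres split widely, with 7 of 11 above every exposed one, while in run 2 only 1 of 21 was and the ranges nearly coincided. The combined change was -2.97 log2 units (SE 0.68, adjusted p = 0.000727, limma), or 7.84-fold lower. It was -6.05 in run 1 (SE 1.08, adjusted p = 3.17e-05) and -1.36 in run 2 (SE 0.78, adjusted p = 0.206; limma). The runs differed by 4.69 (SE 1.33, adjusted p = 0.0492, limma). When 30 cycles was put in for missing values the change was -1.93 (adjusted p = 0.118, limma) and did not pass.

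A041, the other named fall, was detected in 58 of the 66 neurospheres. In run 1 its relative level had a median of -5.83 at 0 mM (range -8.34 to 7.07, n = 9) and -8.99 at 25 mM (range -11.99 to -8.30, n = 7). The unexposed value of 7.07 stood apart, the next highest being -1.12, and came from a neurosphere with 58 detected assays. The run 1 change below contains it. In run 2 the median was -6.70 at 0 mM (range -9.91 to -3.70, n = 22) and -7.34 at 25 mM (range -13.26 to -4.55, n = 20). In run 1 all but 1 of the 9 unexposed neurospheres with a value were above every exposed one, and in run 2 the groups overlapped over most of their range. The combined change was -2.00 log2 units (SE 0.71, adjusted p = 0.0213, limma), or 4.01-fold lower, with -5.26 in run 1 (SE 1.28, adjusted p = 0.00316) and -0.78 in run 2 (SE 0.79, adjusted p = 0.472). The difference between the runs was 4.48 and did not pass (adjusted p = 0.102, limma). The call ended in 7 alternative settings. They included run 1 fitted alone (-5.26, limma, adjusted p = 0.062) and run 2 fitted alone (-0.78, limma, adjusted p = 0.368). Also among them were no centring (-2.29, limma, adjusted p = 0.0503) and centring on the 10 steadiest assays (-1.68, limma, adjusted p = 0.0564). With 30 cycles put in for missing values it ended too (-2.36, limma, adjusted p = 0.0548).

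**Figure D3:**
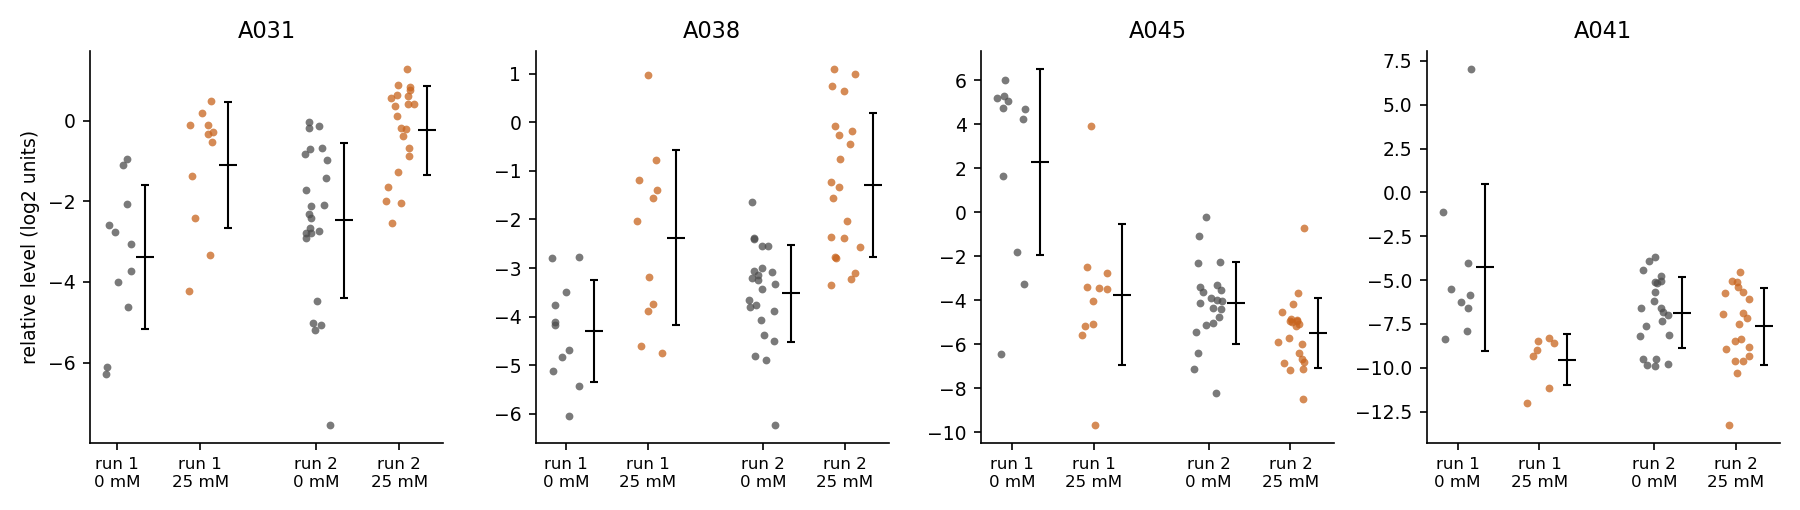
Relative level (log2 units, centred on 50 widely detected assays) of the 2 named assays that rose, A031 and A038, and the 2 that fell, A045 and A041, by run and ethanol dose. Points are neurospheres with a value and bars the mean with 1 SD; the rises appear in both runs, while the falls were -6.05 and -5.26 in run 1 against -1.36 and -0.78 in run 2.

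Many relative levels moved with size among neurospheres of the same run and dose. A slope on log2 diameter was called in 27 of 72 assays (37.5%; limma), 15 positive and 12 negative. The steepest belonged to A031, whose level changed by -1.50 log2 units per doubling of diameter (SE 0.26, adjusted p = 1.29e-05, limma), higher in smaller neurospheres. Its slope was -1.55 among unexposed neurospheres alone (adjusted p = 0.00193) and -1.32 among exposed ones alone (adjusted p = 0.0831; limma), where it did not pass. The slope of A038 was -0.25 (adjusted p = 0.479), that of A045 was 0.37 (adjusted p = 0.608) and that of A041 was 1.16 (SE 0.54, adjusted p = 0.0828), the largest positive slope of the panel. None of these 3 passed in limma. Among unexposed neurospheres alone 18 slopes passed and among exposed ones alone 1, with 25 at an unadjusted p under 0.05 (limma). The difference in slope between the doses was called in 0 of 72 assays, with 7 at an unadjusted p under 0.05 (limma). Without centring 0 slopes passed, with 8 at an unadjusted p under 0.05 (limma).

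With log2 diameter as a covariate, 5 of the 72 assays differed between the doses, 4 higher and 1 lower, and all 5 were among the 25 (limma). The sign of all 25 was kept, and their median size went from 1.02 to 0.56 log2 units. A038 kept nearly its whole change, at 1.97 (SE 0.37, adjusted p = 5.31e-05), and A045 was -2.56 (SE 0.79, adjusted p = 0.0282; limma). A031 went from 2.25 to 1.19 (SE 0.37, adjusted p = 0.0282) and A041 to -1.07 (SE 0.81, adjusted p = 0.417), which did not pass in limma. The other 2 assays called in both fits, both higher at 25 mM, went from 1.71 to 2.20 and from 1.14 to 1.16. In run 1 the doses shared little of their size range, so the covariate there rests on few neurospheres of matched size. Among the 31 neurospheres labelled M, 10 at 0 mM and 21 at 25 mM, 4 assays passed. There A038 was 1.78 (adjusted p = 0.0423) and A031 0.86 (adjusted p = 0.461; limma).

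**Figure D4:**
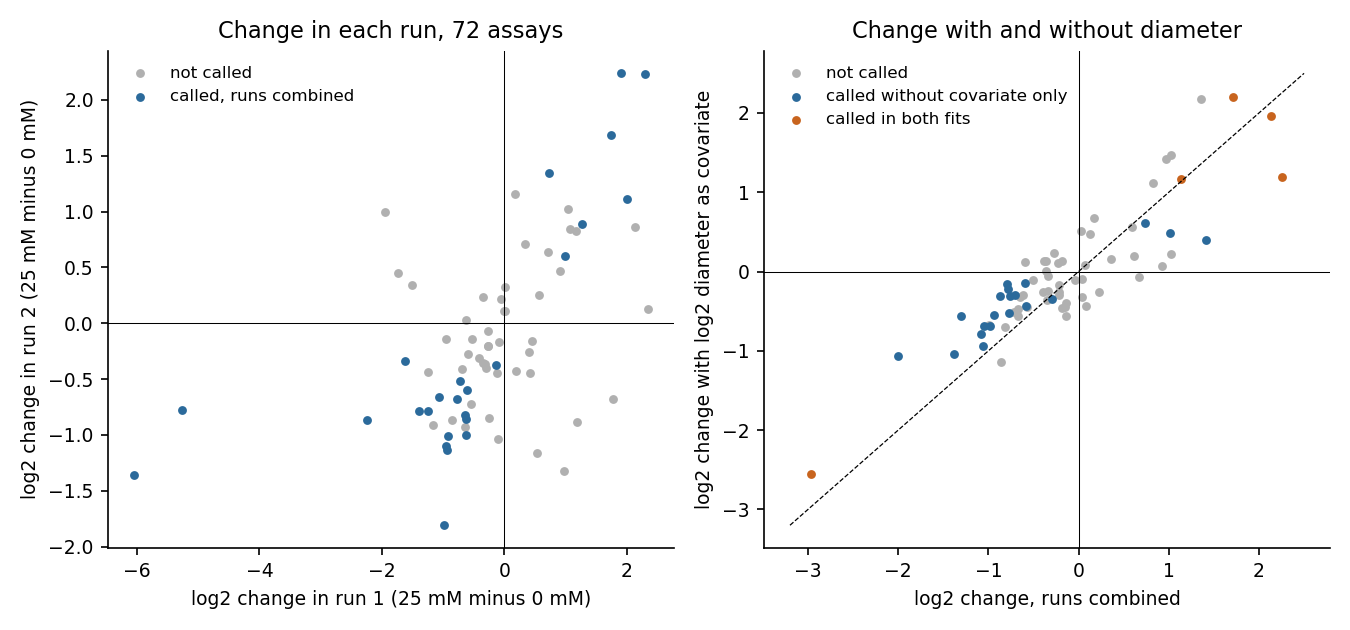
Left, log2 change in run 1 against log2 change in run 2 (25 mM minus 0 mM) for 72 assays, with the 25 called in the combined comparison in blue. Right, log2 change of the same assays with runs combined against the change with log2 diameter as a covariate; the dashed line marks equal values, orange marks the 5 assays called in both fits, and all but 1 of the blue points, called without the covariate only, lie nearer to 0 on the vertical axis than on the horizontal one.

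The leading components of variation in the 50 widely detected assays, computed without the dose labels, were scored for each neurosphere. The mean of each run was removed from every assay first, so the scores leave out differences between run means. Of the remaining variance, component 1 held 35.9% and component 2 held 19.8%. The sign of each was set so that its score correlates positively with mean cycle number. The score on component 1 had a median of 0.57 at 0 mM and 2.65 at 25 mM in run 1, and of -0.26 and 2.12 in run 2. Unexposed neurospheres reached far lower, to -15.72 against -6.95, and the upper ends of both doses coincided. The difference was 3.33 (SE 1.25, adjusted p = 0.0195, permutation test), and it did not pass within run 1 (3.64, adjusted p = 0.0941) or run 2 (3.17, adjusted p = 0.087). With log2 diameter as a covariate it was 0.45 (unadjusted p = 0.722).

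Component 2 had a median score of 2.10 at 0 mM and -2.08 at 25 mM in run 1, and of 2.21 and -1.91 in run 2. Low scores included neurospheres with early mean cycle numbers, such as -6.75 at 8.54 cycles and -5.70 at 7.08 cycles. The highest score, 10.04, came at 16.8 cycles, while the latest neurosphere, at 19.7 cycles, scored 1.87. Whether component 2 follows total signal was not tested. The scores of exposed neurospheres ended at 1.87, while unexposed ones reached 10.04. Unexposed neurospheres no larger than the largest exposed one reached 3.96, while an unexposed one of 58.1 micrometres, just above that size, scored 7.56. Pearson's r of component 2 with log2 diameter was 0.15 at 0 mM and -0.08 at 25 mM in run 1. In run 2 it was 0.29 and -0.20, and none passed (adjusted p at least 0.482, permutation test). The difference was -3.91 (SE 0.84, adjusted p = 0.00015, permutation test), the unadjusted p being the smallest that 100000 resamples can give, 1e-05. It was -3.97 in run 1 (adjusted p = 0.0299) and -3.88 in run 2 (adjusted p = 0.0021; permutation tests). With log2 diameter as a covariate it was -3.34 (unadjusted p = 0.00113). The covariate thus moved the difference on component 1 from 3.33 to 0.45 and that on component 2 from -3.91 to -3.34.

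Within groups, component 1 correlated negatively with log2 diameter, though mostly without passing. Pearson's r was -0.31 at 0 mM and -0.57 at 25 mM in run 1 and -0.58 and -0.47 in run 2. Spearman's rho was -0.17, -0.63, -0.66 and -0.48. Of these, rho in the 23 unexposed neurospheres of run 2 passed adjustment over the 16 relations (adjusted p = 0.0128, permutation test), while r there did not (adjusted p = 0.0618). The other adjusted p-values were 0.757, 0.302 and 0.181 for r and 0.759, 0.165 and 0.147 for rho (permutation tests). Without the 2 neurospheres farthest from the median diameter r was 0.05, -0.49, -0.55 and -0.40.

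**Figure D5:**
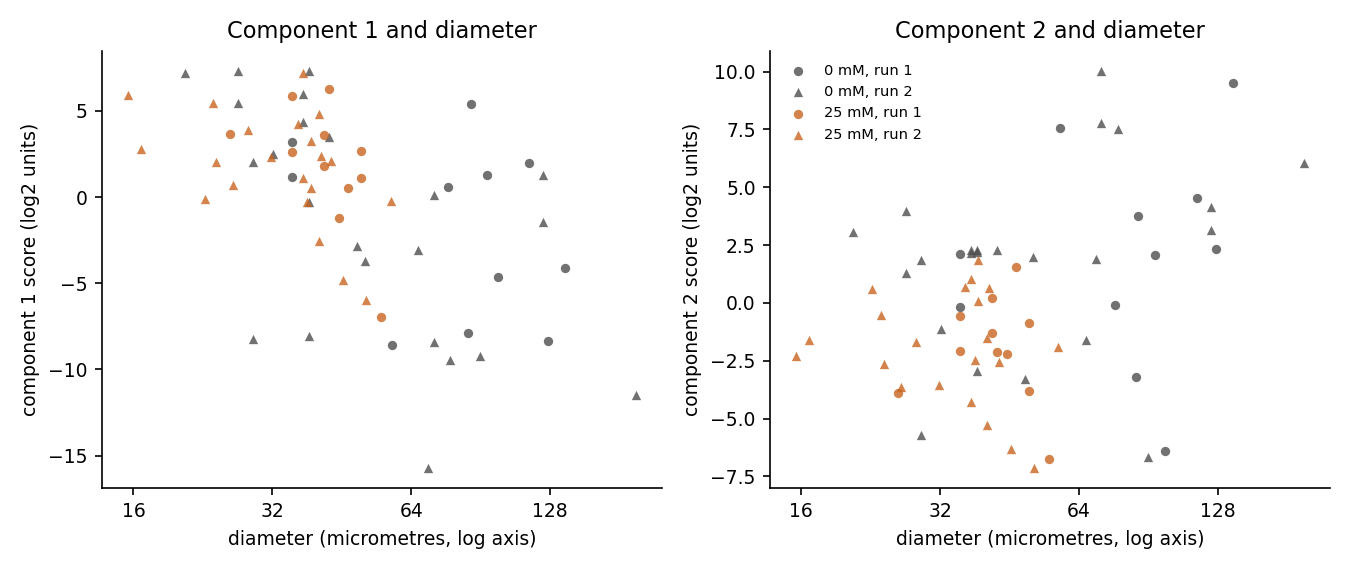
Scores on component 1 and component 2 of the relative levels of 50 assays (log2 units, run means removed) against diameter in micrometres (log axis), with each neurosphere coloured by ethanol dose and shaped by run. Component 1 correlates negatively with log2 diameter in each run and dose, where only Spearman's rho in unexposed neurospheres of run 2 passed adjustment. On component 2 exposed neurospheres end at 1.87, unexposed ones of up to 57.7 micrometres reach 3.96 and larger unexposed ones reach 10.04.

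Exposed neurospheres were more alike than unexposed ones in size and in overall transcript pattern. The mean absolute deviation of log2 diameter from the median of its run and dose was 0.60 at 0 mM and 0.31 at 25 mM, a difference of -0.29 (adjusted p = 0.0318, permutation test). This did not pass within run 1 (-0.27, adjusted p = 0.192) or run 2 (-0.30, adjusted p = 0.122; permutation tests). The distance of a neurosphere from the centre of its group over the 50 assays averaged 1.24 at 0 mM and 0.91 at 25 mM in log2 units, a difference of -0.33 (SE 0.10, adjusted p = 0.0206). It was -0.30 in run 1 (adjusted p = 0.192) and -0.35 in run 2 (adjusted p = 0.0318; permutation tests). Measured from a line on log2 diameter the difference was -0.27 (unadjusted p = 0.00715), and among the neurospheres labelled M it was -0.03 (unadjusted p = 0.809; permutation tests). The spread of mean cycle number (-0.35 cycles, adjusted p = 0.431) and of the number of assays detected (0.98 assays, adjusted p = 0.192) did not pass. These p-values were adjusted over 12 tests.

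Assay by assay, the spread was smaller at 25 mM in 58 of 72 assays, in both runs for 44 of them, with a median difference of -0.24 in absolute deviation. The test called 4 assays (5.56%; limma on absolute deviations), 3 with a smaller spread and 1, A038, with a larger one. The SD of A038 was 1.05 at 0 mM and 1.79 at 25 mM in run 1, and 1.00 and 1.48 in run 2. The difference in absolute deviation was 0.56 (SE 0.18, adjusted p = 0.0471, limma), against the direction of most assays. Every one of these 4 calls ended without centring, in run 1 alone, in run 2 alone and with deviations from a line on diameter, where limma called 0 assays, with 7, 3, 13 and 13 at an unadjusted p under 0.05. Within runs A038 had an adjusted p of 0.83 and 0.161 (limma).

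The same dose gave partly other changes in the Set-B cultures, compared over 69 assays with a fit of both sets. The change at 25 mM differed between the sets in 29 assays (42.0%; limma, interaction of dose and set), with the Set-B change higher in 17 and lower in 12. Other changes were shared. An unnamed assay rose by 1.71 in Set-A (adjusted p = 0.000246, limma) and by 2.31 in Set-B (adjusted p = 1.12e-07, limma). Its set difference did not pass (adjusted p = 0.369, limma). The sets share run 1 only, since the rest of Set-A was measured in run 2 and the rest of Set-B in run 3, so outside run 1 set and run cannot be told apart. In run 1 alone 5 assays were called, A031 among them (-3.00, adjusted p = 0.0287) and A038 not (-1.86, adjusted p = 0.281; limma). With all runs the change of A031 was -0.74 in Set-B, a difference of -3.00 from Set-A (adjusted p = 1.44e-07, limma). That of A038 was 0.76, a difference of -1.37 (adjusted p = 0.0315, limma). The named assays were picked by their Set-A change, which these differences contain. A041 was -0.09 in Set-B, a difference of 1.91 that did not pass (adjusted p = 0.316, limma). A045 had too few values in Set-B for the comparison. The diameter difference was -0.12 in Set-B, or 0.59 log2 units less of a decrease (adjusted p = 0.00501), while the mean cycle number differences of 0.50 and 0.32 did not differ detectably (adjusted p = 0.798; permutation tests). Without centring the set difference was called in 1 assay.

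Within Set-A the named assays did not follow dose in order. The comparisons with 0 mM below use the same unexposed neurospheres. The differences between ethanol doses do not use them, but they share the 25 mM neurospheres. Since the assays were named by their 25 mM change, the p-values of these differences rest partly on values used for naming. Against 0 mM, A031 changed by 2.25 log2 units at 25 mM, 0.18 at 70 mM and 2.47 at 100 mM. Its level was lower at 70 than at 25 mM, by -2.07 (adjusted p = 5.85e-07), and at 100 mM it was 0.22 from the 25 mM level (adjusted p = 0.669; limma). A038 changed by 2.13, 2.43 and 0.65 at the 3 doses, and it was lower at 100 than at 25 mM, by -1.48 (adjusted p = 0.00159, limma). The values were -2.97, -3.95 and -1.80 for A045 and -2.00, -0.67 and -0.26 for A041, with no difference from 25 mM passing in limma.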

How the data were processed

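Messenger RNA was measured in single neurospheres by quantitative PCR on Biomark HD arrays with EvaGreen dye over 30 cycles, without RNA extraction, per the labels' protocols. The authors deposited cycle numbers (Ct), which the labels credit to the array maker's software and the file headers call not normalized. No source used here gives the efficiency of the primers, the version of that software or why values are missing. The stage comes from the source description, since the stage label rises with each sample.

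Relative levels were computed as described, missing values were left missing, and 3 assays detected in under 50% of the 66 neurospheres were not tested. The model for levels, slopes and spread was limma's (version 3.58.1, R 4.3.3), only the groups compared entering the fit, with p-values adjusted by Benjamini-Hochberg over these assays and called at 0.05. For single measures, dose labels were permuted 100000 times within run (two-sided), and detection with the exact conditional Mantel-Haenszel test (R). For the components the run mean of each assay was removed, and 25 missing values were set to the run mean. Python 3.11.15, numpy 2.4.6, pandas 2.3.3, scipy 1.17.1 and matplotlib 3.10.9 were used. The tests were checked on simulated data.

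The rule for named assays took the 2 largest rises and 2 largest falls among called assays with the same direction in both runs and a value in at least 50% of each run and dose group. None of the 75 identifiers (0 matched) appears in the mouse gene name table (assembly GRCm38.p6), so the marker list drawn up for the cells was not used. Neurospheres, lists and tests were chosen with earlier results of these data known. Alternatives changed the centring, the missing values, the filters, the covariates and the neurospheres entered.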

Additional observations from a re-analysis of the deposited data

Results flagged for a closer look

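The change at 25 mM ethanol differed between the runs for A045, by 4.69 log2 units (run 2 minus run 1, limma interaction). It also differed for an assay not named here, by 2.94, with -1.94 in run 1 and 1.00 in run 2.

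The change differed between the culture sets, Set-B minus Set-A, in 29 assays, among them A031 by -3.00 and A038 by -1.37 log2 units (limma interaction). In run 1, the only run the sets share, 5 assays were called. The log2 diameter difference of Set-B was 0.59 above that of Set-A (permutation test).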

How the results depend on the processing

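Leaving out each neurosphere in turn gave 23 to 30 changed levels, so single assays entered or left the calls. A031 lay at 2.10 to 2.35, A038 at 2.03 to 2.21, A045 at -3.21 to -2.72 and A041 at -2.14 to -1.58. The diameter difference lay at -0.75 to -0.66, mean cycle number at 0.10 to 0.46 and assays detected at -2.99 to -2.23. No call changed among these named assays and single measures, the single measures being judged there by unadjusted p. All other alternatives were labelled against the main result: tests by direction and threshold, counts of calls by whether they stayed of similar size. Of these, 145 were the same, 53 weaker (call lost or count smaller), 1 stronger and 2 reversed in direction. The level comparison (25 assays) gave 5 without centring, 1 in run 1 alone, 8 in run 2 alone, 4 among neurospheres labelled M and 5 with diameter as a covariate. Without centring, limma called 1 run difference, 2 changes in run 1, 0 in run 2 (9 at an unadjusted p under 0.05), 0 slopes on diameter (8 unadjusted), 1 set difference and 0 spreads (7 unadjusted). Slopes at 25 mM alone gave 1 assay and A045 reversed to -0.22; set differences in run 1 alone gave 5. Detection by the exact test gave 0 in run 1 alone (3 unadjusted), 2 in run 2 alone and 1 among those labelled M. Spread by limma gave 9 with deviations from the mean, 0 from a line on diameter (13 unadjusted), 0 in run 1 alone (3) and 0 in run 2 alone (13), where A041 reversed to 0.13. Assays detected differed by -2.55 in run 1 and -2.96 among those labelled M, component 1 by 3.64 in run 1, 3.17 in run 2 and 0.45 with diameter, and the spread of log2 diameter by -0.27 and -0.30 in the runs; none of these passed. The cause of these losses was not tested. The settings run 1 alone, run 2 alone and no centring within runs, for the single measures and within-run levels, and the covariate or label M for detection, components and distance were chosen after seeing the data. Plate positions recur in both doses: with position as a replicate block 31 levels passed, the 25 among them. Of 32 same-position pairs 20 had a correlation of deviations over 0.1 (median 0.15, range -0.38 to 0.58) and 1 correlated best with its own position. Whether neurospheres at the same position share an effect was not tested, and the main fit leaves position out.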
